A study of Mus musculus with 13 samples.

Results

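The malate-aspartate and glycerol phosphate shuttles carry the electrons of cytosolic NADH into mitochondria, whose inner membrane NADH itself does not cross. A set of 10 genes was taken by symbol from the deposited table: Got1, Got2, Mdh1, Slc25a11, Slc25a12 and Slc25a13 of the malate-aspartate shuttle, Gpd1 and Gpd2 of the glycerol phosphate shuttle, and the alanine transaminases Gpt and Gpt2. Each matched 1 of the 55357 Ensembl identifiers, and 9 of the 10 were among the 11073 genes with enough counts to be tested. Slc25a13 was not. The members were chosen by symbol with earlier results of these data known, and the rule does not state the measured values behind the choice. Tests over all genes are therefore given for its members as a description, not as independent support.

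In the malate-aspartate shuttle, cytosolic malate dehydrogenase uses NADH to make malate, a carrier exchanges malate for 2-oxoglutarate, and the mitochondrial enzyme releases NADH in the matrix. The carbon returns as aspartate, which a transaminase pair makes in the matrix and consumes in the cytosol. In the glycerol phosphate shuttle, a cytosolic dehydrogenase makes glycerol 3-phosphate and a flavoprotein of the inner membrane hands its electrons to ubiquinone. Brown adipose tissue, the fat that burns fuel to make heat, is known for abundant Gpd2. The aspartate-glutamate carriers and Gpd2 are known to bind calcium on the outer face of the inner membrane.

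Tags at the 3′ end of mRNAs were counted in brown fat of mice under 4 conditions. The samples were 4 knockouts kept at 4 °C for 6 h (KO cold), 4 controls kept so (control cold), 3 knockouts at room temperature (KO RT) and 2 controls at room temperature (control RT). Knockouts carried floxed Stim1 and Stim2 with Cre under the adiponectin promoter (Stim1/2_Adp-Cre), and the labels name controls Stim1/2_fl/fl. Adiponectin drives Cre in adipocytes, so other cells of the tissue keep both genes, which encode sensors of calcium in the endoplasmic reticulum. The sources used here give no age, strain or sex of the mice and no temperature of the room. Nothing says that the samples of a group were separate animals, so p-values measure the spread between samples, part of which may be technical.

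Libraries held 1570684 to 2016178 counts. Levels are CPM, counts divided by the scaled size of the library, with means as mean ± SD. Differences are log2 fold changes ± standard error. Each adjusted p comes from edgeR's quasi-likelihood test, with Benjamini-Hochberg adjustment across all 11073 genes. Genes under 0.05 are said to have passed, risen or fallen. Stim1 was at 78.8 to 108 CPM in KO cold and 114 to 134 CPM in control cold, and at 62.0 to 86.1 CPM in KO RT and 126 to 149.9 CPM in control RT. Its difference between KO and control did not pass in cold (-0.45 ± 0.13, adjusted p = 0.057) or at RT (-0.90 ± 0.17, adjusted p = 0.349). Stim2 fell in KO cold (-0.88 ± 0.24, adjusted p = 0.0382), a call lost without any 1 of 6 libraries (adjusted p 0.0533 to 0.105). At RT Stim2 differed by -0.59 ± 0.31 between KO and control and did not pass. Tags of Stim1 and Stim2 need not lie in the deleted part. Ucp1, the heat-producing uncoupling protein, rose in cold by 1.06 ± 0.13 in KO (adjusted p = 5.36e-05) and 1.31 ± 0.15 in control (adjusted p = 3.26e-05). All 12 brown adipocyte markers were counted in every library. Their summed level was 23749 to 25269 CPM in KO cold, 26439 to 32299 CPM in control cold, 17738 to 20274 CPM in KO RT and 18084 to 20434 CPM in control RT. The sum includes Ucp1, which averaged 6641, 8741, 3183 and 3521 CPM in the same order of groups, so it does not measure adipocyte content alone. Fewer cells of a type and less RNA per cell cannot be told apart in tissue.

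Got1 was the 1 gene of the set that passed in any comparison. It encodes the cytosolic aspartate transaminase, which turns aspartate arriving from mitochondria back into oxaloacetate. Cold raised it about 10-fold in both genotypes, and in cold it was 1.52-fold lower in KO than in control. Of all tested genes, 18.9% passed in cold against RT in KO, 25.2% in the same comparison in control, and 5.93% between KO and control in cold. Got1 (ENSMUSG00000025190.14, chromosome 19) had 279, 261, 237 and 269 counts in KO cold 1 to 4, or 171, 136, 133 and 152 CPM. In control cold 1 to 4 it had 389, 417, 285 and 343 counts, or 224, 258, 177 and 242 CPM. At RT it had 23, 34 and 20 counts in KO, or 11.65, 19.5 and 10.5 CPM, and 56 and 28 counts in control, or 25.75 and 16.9 CPM. Every cold library thus lay above every RT library, and every KO cold library lay below every control cold library. The RT groups overlapped.

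Cold against RT gave Got1 a log2 fold change of 3.42 ± 0.22 in KO (10.7-fold, 95% interval 7.75 to 14.8, adjusted p = 1.42e-07). In control the change was 3.38 ± 0.25 (10.4-fold, 95% interval 7.24 to 14.9, adjusted p = 8.2e-07). Among 11073 genes this change ranked 26 from the top in KO and 48 in control. By p it ranked 2 in each genotype. Both cold responses differed by 0.04 ± 0.31 on the log2 scale (KO minus control, 95% interval -0.61 to 0.70, adjusted p = 0.986). KO against control in cold gave -0.61 ± 0.16 (95% interval -0.94 to -0.27, adjusted p = 0.0308). At RT the difference was -0.65 ± 0.28 (95% interval -1.25 to -0.05) and did not pass (adjusted p = 1), and it ran from -0.96 to -0.30 when 1 library was left out. The RT groups held 77 Got1 counts over 3 KO libraries and 84 over 2 control libraries, against 1046 and 1434 counts in KO cold and control cold.

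The call in KO cold rested on most of the 8 cold libraries. Without KO cold 2, 3 or 4 the adjusted p was 0.0913, 0.0943 or 0.0631. Without control cold 1, 2 or 4 it was 0.0606, 0.0871 or 0.0640. Over all 13 ways of leaving out 1 library the change stayed between -0.71 and -0.53. The cold response passed in each of them, at 3.26 to 3.74 in KO and 3.14 to 3.73 in control. Brown adipocyte markers as a sum were also higher in cold and lower in KO cold than in control cold, by the values above. That sum includes Ucp1, which itself rose in cold, and the part of these markers in the Got1 result was not tested.

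**Figure D1:**
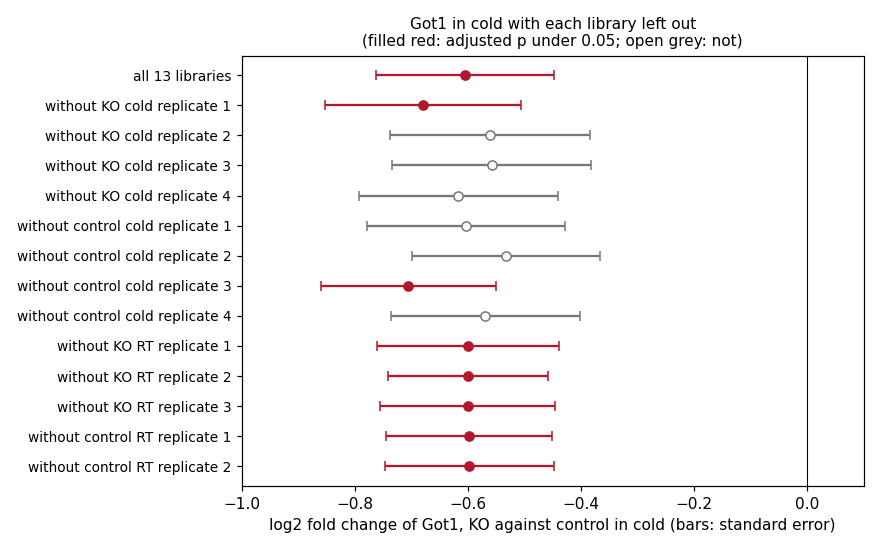
Log2 fold change of Got1 in KO cold against control cold (x axis, bars give the standard error), with all 13 libraries and with each 1 left out in turn (y axis). The estimate stays between -0.71 and -0.53, while the adjusted p passes 0.05 (filled red) without KO cold 1, control cold 3 or any RT library and misses it (open grey) without any other cold library.

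The sequence before the Got1 start is shown because Got1 stood apart from its mitochondrial partner Got2, whose window is set beside it. Both are the 250 bases before the RefSeq start on GRCm38.p6, minus strand, 5′ to 3′, and capitals mark matches to the motifs searched.
Got1, chr19:43524606-43524855: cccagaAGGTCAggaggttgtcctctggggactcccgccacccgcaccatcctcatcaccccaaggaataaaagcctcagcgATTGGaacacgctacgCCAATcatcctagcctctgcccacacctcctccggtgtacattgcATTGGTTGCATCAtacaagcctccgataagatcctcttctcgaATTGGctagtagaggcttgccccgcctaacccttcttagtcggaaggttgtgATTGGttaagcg
Got2, chr8:95888402-95888651: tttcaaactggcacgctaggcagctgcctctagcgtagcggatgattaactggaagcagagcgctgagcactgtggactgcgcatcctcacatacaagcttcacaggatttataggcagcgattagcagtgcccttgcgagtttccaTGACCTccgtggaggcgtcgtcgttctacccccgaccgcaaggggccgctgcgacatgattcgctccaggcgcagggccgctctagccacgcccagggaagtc
A total of 7 motifs was searched on both strands: the cAMP response element TGACGTCA, its shorter core TGACG, the C/EBP-ATF response element TTGCATCA, the estrogen-related receptor element TCAAGGTCA, the nuclear receptor core site AGGTCA, the E-box CACGTG and the CCAAT box CCAAT. They overlap where AGGTCA is part of TCAAGGTCA and TGACG of TGACGTCA. The Got1 window held 5 CCAAT boxes, 4 of them on the other strand (ATTGG), and 0.213% of 32851 promoter windows held 5 or more. That cut is the Got1 count itself, so the share describes this window and is no test. The Got1 window also held TTGCATCA from position -102 to -95 before the start, directly next to a CCAAT box. That motif occurred in 0.791% of all windows. AGGTCA stood at -244 to -239 in Got1 and on the other strand at -103 to -98 in Got2 (14.0% of all windows).

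Windows were found for 8 of the 10 genes (Gpd2 had 2), and Gpd1 and Gpt were not matched. TGACGTCA (1.55% of all windows) and TCAAGGTCA (0.387%) were in none of the 9 windows. CCAAT (33.8%) was in those of Got1, Mdh1, Slc25a11 and Slc25a13. TGACG (17.8%) and CACGTG (6.02%) were in that of Slc25a13 alone. Matches of letters describe these windows and do not show that a factor binds there.

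Got2, the matrix transaminase that supplies the aspartate, did not follow Got1. Got2 (ENSMUSG00000031672.9, chromosome 8) was at 13.5, 26.6, 17.4 and 11.3 CPM in KO cold and 12.1, 13.6, 13.6 and 22.6 CPM in control cold. It was at 15.7, 12.05 and 12.6 CPM in KO RT and 16.1 and 18.1 CPM in control RT. The cold groups overlapped with each other and with RT, and 1 library in each cold group stood above the rest. No comparison passed: cold changed Got2 by 0.36 ± 0.29 in KO (95% interval -0.25 to 0.97, adjusted p = 0.415) and by -0.15 ± 0.32 in control (-0.83 to 0.53, adjusted p = 0.768). Between KO and control in cold the difference was 0.18 ± 0.27 (95% interval -0.39 to 0.74, adjusted p = 0.764). With 20 to 51 counts per library, the intervals reached up to a 1.96-fold rise in KO and a 1.44-fold rise in control.

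Mdh1 (ENSMUSG00000020321.17, chromosome 11), cytosolic malate dehydrogenase, uses NADH to make the malate that enters mitochondria. It was at 1126, 816, 902 and 1181 CPM in KO cold and 942, 1236, 981 and 908 CPM in control cold. In the RT groups it stood at 795, 702 and 992 CPM in KO and 786 and 729 CPM in control. Each control cold library was above both control RT libraries, whereas in KO the groups overlapped. The cold change was 0.28 ± 0.15 in KO (adjusted p = 0.218) and 0.42 ± 0.17 in control (95% interval 0.06 to 0.79, adjusted p = 0.0838), and it passed in control when no filter on low counts was used (adjusted p = 0.0221). That setting passed more of all genes at RT and in the difference of cold responses too. KO and control did not differ in cold beyond their spread (-0.02 ± 0.14, 95% interval -0.31 to 0.28). Mdh2, the mitochondrial enzyme that completes the cycle, was not in the set and is named for that role. It was at 986 CPM on average in KO cold and 985 CPM in control cold, with a difference of 0.00 ± 0.09. In cold against RT Mdh2 rose in KO (0.32 ± 0.10, adjusted p = 0.0333), and the change in control was 0.25 ± 0.11 (adjusted p = 0.121).

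Of the carriers, Slc25a11 (ENSMUSG00000014606.15, chromosome 11), which exchanges malate for 2-oxoglutarate, was at 199, 178, 186 and 203 CPM in KO cold and 153, 196, 173 and 131 CPM in control cold. In the RT groups it stood at 213, 204 and 236 CPM in KO and 225 and 189 CPM in control. Each KO cold library was thus below each KO RT library while the control groups overlapped. Cold changed it by -0.19 ± 0.13 in KO (adjusted p = 0.353) and -0.34 ± 0.15 in control (95% interval -0.66 to -0.03, adjusted p = 0.103, but 0.0357 without control cold 2). The difference between KO and control in cold was 0.23 ± 0.12 (95% interval -0.03 to 0.49, adjusted p = 0.328).

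Slc25a12 and Slc25a13, known as aralar and citrin, exchange aspartate for glutamate. Slc25a12 (ENSMUSG00000027010.17, chromosome 2) had 10, 9, 3 and 7 counts in KO cold and 6, 8, 6 and 7 in control cold, against 17, 15 and 8 in KO RT and 22 and 8 in control RT. It thus came through the filter on low counts on its RT libraries. The averages were 4.11 ± 1.85 CPM in KO cold, 4.26 ± 0.79 CPM in control cold, 7.14 ± 2.55 CPM in KO RT and 7.47 ± 3.74 CPM in control RT. Cold changes of -0.79 ± 0.41 in KO (adjusted p = 0.197) and -0.84 ± 0.46 in control (adjusted p = 0.189) did not pass. With 1 library left out they ran from -1.05 to -0.53 in KO and from -1.23 to -0.19 in control. KO cold and control cold differed by -0.05 ± 0.43 (adjusted p = 0.964), with a 95% interval of -0.96 to 0.86.

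Markers of skeletal muscle were higher in some RT libraries. The 12 muscle markers, none of them at 0 in every library, summed to 58.4 to 379.7 CPM in KO cold and 49.0 to 288 CPM in control cold. At RT they summed to 1692, 1153 and 193 CPM in KO 1 to 3 and to 2620 and 113 CPM in control 1 and 2. The 3 RT libraries above 1000 CPM, control RT 1, KO RT 1 and KO RT 2, were also the 3 with the highest Slc25a12. Within KO cold this was not so. KO cold 3 had the highest muscle sum there (379.7 CPM) and the lowest Slc25a12 (1.69 CPM), and KO cold 1 (64.3 CPM) had the highest Slc25a12 (6.12 CPM). The part of muscle RNA in the Slc25a12 values was not tested. A setting chosen after seeing the data left out the 3 RT libraries above 1000 CPM, which kept 1 library in each RT group. There the cold rise of Got1 was 3.81 in KO and 3.73 in control. Slc25a13 (ENSMUSG00000015112.16, chromosome 6) had 2 counts in all over KO cold (exact 95% Poisson interval 0.242 to 7.22), 5 over control cold (1.62 to 11.7), 4 over KO RT (1.09 to 10.2) and 7 over control RT (2.81 to 14.4). The highest single library had 4 counts. At this depth no difference could be seen in Slc25a13, and the intervals cover counting error only.

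**Figure D2:**
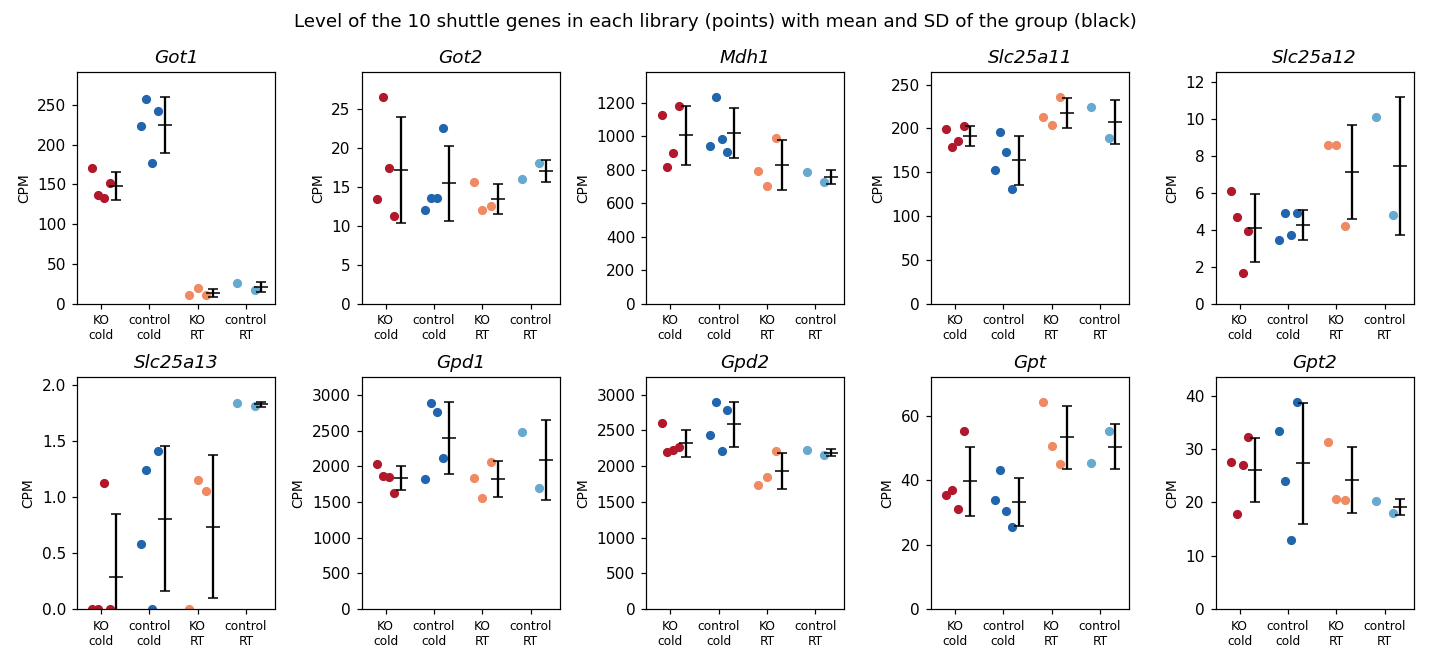
Level of each of the 10 genes in CPM (y axis, from 0, a scale of its own for each gene) in every library (points) of KO cold, control cold, KO RT and control RT, with the mean and SD of each group in black (cut at 0). Got1 separates cold from RT, and every KO cold point of Got1 (133 to 171 CPM) lies below every control cold point (177 to 258 CPM), while the other genes overlap between most groups.

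In the glycerol phosphate shuttle, Gpd1 is the cytosolic dehydrogenase, whose product also feeds triglyceride synthesis. Gpd1 (ENSMUSG00000023019.13, chromosome 15) was at 2038, 1859, 1846 and 1621 CPM in KO cold and 1828, 2884, 2761 and 2120 CPM in control cold. In the RT groups it stood at 1843, 1556 and 2059 CPM in KO and 2487 and 1697 CPM in control. KO cold 4 lay below every control cold library, and the other 3 KO cold libraries lay between the lowest and the second lowest of control cold. KO against control in cold was -0.38 ± 0.15 (95% interval -0.70 to -0.06) and did not pass (adjusted p = 0.156, but 0.0198 with no filter on low counts). The fit with no filter also passed more of all genes at RT and in the difference of cold responses. Cold changed Gpd1 by 0.02 ± 0.16 in KO (adjusted p = 0.956) and 0.20 ± 0.19 in control (adjusted p = 0.466).

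Gpd2 (ENSMUSG00000026827.13, chromosome 2), the calcium-sensitive flavoprotein, was at 2600, 2196, 2220 and 2269 CPM in KO cold and 2440, 2895, 2215 and 2789 CPM in control cold. In the RT groups it stood at 1735, 1853 and 2218 CPM in KO and 2223 and 2159 CPM in control. In each genotype 1 cold library lay below the highest RT library and the other 3 lay above it, so the groups overlapped. The cold change was 0.26 ± 0.12 in KO (95% interval 0.02 to 0.51, adjusted p = 0.124) and 0.24 ± 0.13 in control (-0.04 to 0.52, adjusted p = 0.197). KO against control in cold was -0.16 ± 0.11 (95% interval -0.38 to 0.07, adjusted p = 0.450). The intervals for cold in Gpd2 reached up to a 1.42-fold rise in KO and a 1.43-fold rise in control.

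The alanine transaminases pass amino groups between alanine and glutamate in cytosol (Gpt) and matrix (Gpt2). Gpt (ENSMUSG00000022546.6, chromosome 15) was at 35.5, 37.0, 30.9 and 55.3 CPM in KO cold and 34.0, 43.2, 30.4 and 25.4 CPM in control cold. In the RT groups it stood at 64.3, 50.5 and 45.1 CPM in KO and 45.5 and 55.4 CPM in control. Each control cold library was below both control RT libraries, and KO overlapped through KO cold 4. The cold change of Gpt was -0.43 ± 0.21 in KO (adjusted p = 0.166, but 0.0368 without KO cold 4) and -0.59 ± 0.24 in control (adjusted p = 0.0802, but 0.0383 without control cold 2 and 0.0477 without KO cold 4). KO and control in cold differed in Gpt by 0.25 ± 0.20 (95% interval -0.18 to 0.68, adjusted p = 0.543). Hepatocyte markers, a check for liver RNA, reached at most 2.41 CPM as a sum of 6, with Apoa1, Fgb and Ttr at 0 in every library.

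Gpt2 (ENSMUSG00000031700.12, chromosome 8) was at 27.5, 17.7, 27.0 and 32.2 CPM in KO cold and 33.4, 24.1, 13.01 and 38.8 CPM in control cold. It was at 31.4, 20.7 and 20.5 CPM in KO RT and 20.2 and 18.1 CPM in control RT. Control cold held both the lowest and the highest library. No comparison passed, with 0.10 ± 0.29 for cold in KO (adjusted p = 0.847) and 0.50 ± 0.34 in control (adjusted p = 0.305). KO against control in cold was -0.06 ± 0.27 (95% interval -0.64 to 0.51, adjusted p = 0.926).

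Over the set, KO against control in cold gave 1 lower gene, 0 higher and 8 that did not pass among 9 tested, with a median log2 fold change of -0.05. Of all tested genes 2.44% were higher and 3.49% lower, with a median of -0.01. The count is too small to set these genes apart from that background. Got1 was also the 1 gene of the set whose libraries did not overlap, which 6.53% of all genes did in the lower and 6.28% in the higher direction. Cold against RT gave 1 higher and 0 lower of 9 in each genotype. In all, 18.9% of genes passed in KO (9.43% higher, 9.45% lower) and 25.2% in control (12.7% higher, 12.6% lower), so the set held no more calls than the background. Libraries did not overlap for Got1, higher, and Slc25a11, lower, in KO (15.8% and 16.4% of all genes), and for Got1 and Mdh1, higher, and Gpt, lower, in control (19.8% and 20.6%). The median of the set was 0.10 in KO and 0.20 in control, with -0.01 and -0.02 over all genes.

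At RT, edgeR passed 0 of 9 in KO against control, with 1 (Got1) at an unadjusted p under 0.05, and DESeq2 and limma-voom passed 0. It also passed 0.0% of all genes, 346 of which had an unadjusted p under 0.05, while DESeq2 passed 3 of all genes. Libraries did not overlap for Got2, lower in KO (7.96% of all genes), and Gpt2, higher in KO (8.68%), but neither passed (-0.33 ± 0.34 and 0.33 ± 0.36, adjusted p = 1 for each). The other 6 tested genes beside Got1 lay between -0.20 (Gpd1) and 0.13 (Mdh1). In the difference of cold responses edgeR passed 0 of 9, with 0 at an unadjusted p under 0.05, and 0.0181% of all genes. The values ran from -0.40 ± 0.45 for Gpt2 to 0.51 ± 0.43 for Got2, with adjusted p of at least 0.822. DESeq2 and limma-voom passed 0 of the set there too.

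**Figure D3:**
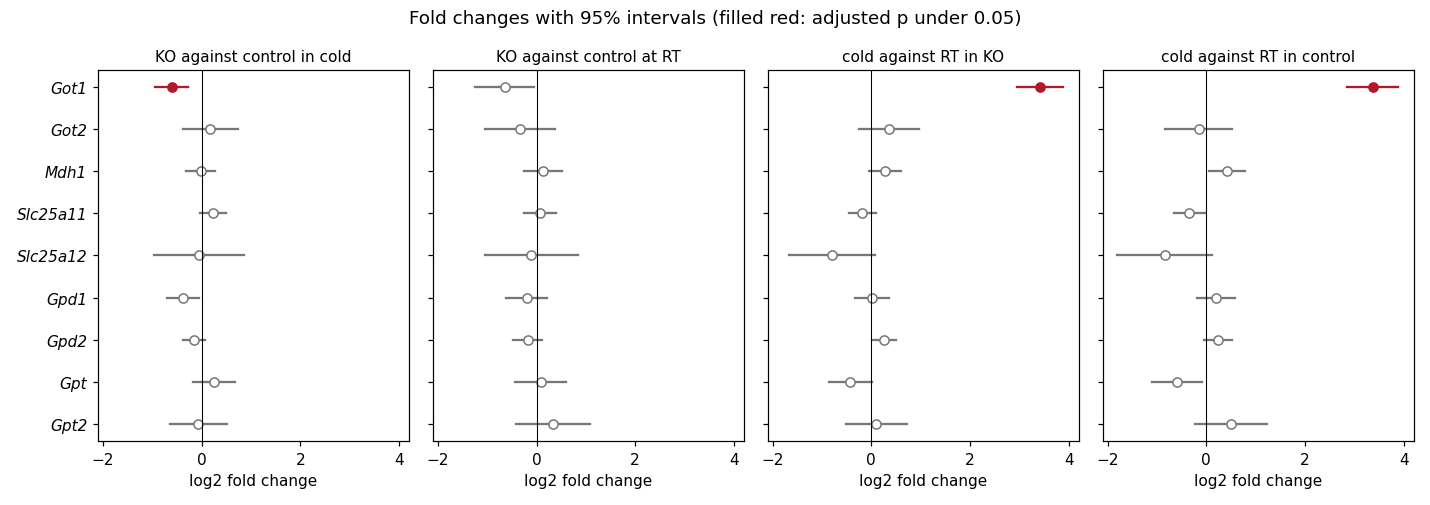
Log2 fold change (x axis, bars give 95% intervals) of the 9 tested genes (y axis) between KO and control at each temperature and between cold and RT in each genotype, with filled red where the adjusted p was under 0.05. Got1 is the 1 gene filled, at -0.61 for KO against control in cold and at 3.42 and 3.38 for cold in KO and control.

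**Figure D4:**
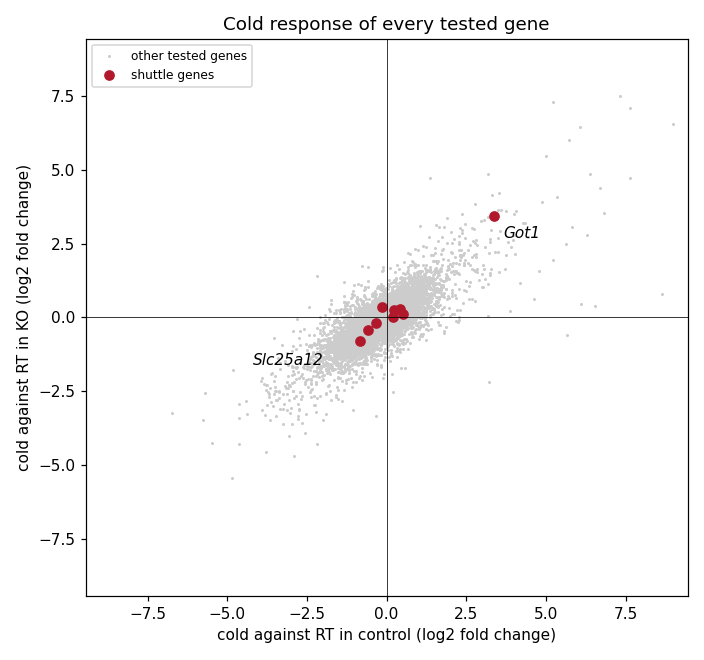
Log2 fold change of cold against RT in KO (y axis) and in control (x axis) for each of the 11073 tested genes, shuttle genes in red. Got1 lies at 3.42 in KO and 3.38 in control, and the other 8 lie between -0.79 and 0.36 in KO and between -0.84 and 0.50 in control.

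Genes around the shuttles were read from 5 further lists. Of 9 tested shuttle partners, 0 passed in KO against control in cold by edgeR (2 at an unadjusted p under 0.05). In cold against RT, 4 rose and 2 fell in KO, where 18.9% of all genes passed, and 2 rose and 2 fell in control, where 25.2% did. These lists too were drawn up with earlier results known, so a count above that share is no evidence about the list. Gpd1l, a paralog of Gpd1, fell in cold to 17.9 CPM in KO, against 52.0 CPM at RT (-1.54 ± 0.23, adjusted p = 0.000288). In control it fell to 17.2 CPM, against 47.2 CPM at RT (-1.45 ± 0.26, adjusted p = 0.000924, but 0.0519 without the 3 RT libraries rich in muscle RNA). Slc25a51, the mitochondrial NAD carrier, rose to 1712 CPM in control cold, against 1037 CPM at RT (0.73 ± 0.14, adjusted p = 0.00130, but 0.0502 without control RT 1). Slc25a20, the carnitine carrier, rose in control (0.54 ± 0.13, adjusted p = 0.00706, log2 fold change 0.52 to 0.57 with 1 library left out). Slc25a10, the dicarboxylate carrier, fell in control (-1.66 ± 0.47, adjusted p = 0.0165, log2 fold change -2.07 to -1.21 with 1 library left out). Both calls rest on 2 control RT libraries, and neither held in every fit with 1 library left out. In KO, Slc25a51 (0.89 ± 0.12, adjusted p = 0.000114) and Slc25a20 (0.52 ± 0.11, adjusted p = 0.00444) rose in cold too. Slc25a10 did not pass there (-0.98 ± 0.45, adjusted p = 0.142). Tags of Slc25a10 numbered 7, 11, 3 and 4 in control cold 1 to 4, against 20 and 27 in control RT 1 and 2. Like Slc25a12, it owed its place among the tested genes to its RT libraries. A filter met in that way favours a fall in cold.

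Of 13 tested genes of cytosolic NADH and pyruvate, which include lactate dehydrogenases and the pyruvate carrier, edgeR passed 0 in KO against control in cold (4 at an unadjusted p under 0.05). In cold against RT it passed 1 in KO, higher (18.9% of all genes passed), and 0 in control (1 at an unadjusted p under 0.05, with 25.2% of all genes passed). Their median log2 fold change was -0.14 between KO and control in cold and 0.02 for cold in each genotype.

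Among 13 tested genes of glutamate, aspartate and alanine metabolism, 2 rose and 1 fell in KO cold relative to control cold (5.93% of all genes passed). Aspa, which splits N-acetylaspartate into aspartate and acetate, fell (-0.90 ± 0.13, adjusted p = 0.000654). Cad, which uses aspartate for pyrimidine synthesis, rose (1.499 ± 0.23, adjusted p = 0.00107). Oat, ornithine aminotransferase, rose as well (0.47 ± 0.12, adjusted p = 0.0280, but 0.0511 to 0.0859 when any 1 of 6 cold libraries was left out). Cold against RT gave 4 higher and 4 lower in control (25.2% of all genes passed) and 3 and 3 in KO (18.9%). In control Aspa rose (1.19 ± 0.17, adjusted p = 0.000149), whereas Cad (-1.59 ± 0.27, adjusted p = 0.000592) and the amino acid transporters Slc1a5 (-1.91 ± 0.17, adjusted p = 3.93e-06) and Slc1a3 (-1.1 ± 0.21, adjusted p = 0.00127) fell. Slc1a5 (-1.51 ± 0.16, adjusted p = 1.01e-05) and Slc1a3 (-1.145 ± 0.19, adjusted p = 0.000518) fell in KO too. Aspa rose there (0.48 ± 0.15, adjusted p = 0.0316), a call not held in every fit with 1 library left out. Cad did not pass in KO (-0.16 ± 0.22, adjusted p = 0.662). In the difference of cold responses neither Aspa (adjusted p = 0.377) nor Cad (adjusted p = 0.252) passed.

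Genes that supply or use glycerol 3-phosphate included 1 that rose and 2 that fell in KO cold among 12 tested (5.93% of all genes passed). Glycerol kinase, Gk, which makes glycerol 3-phosphate from glycerol, averaged 1438 CPM in KO cold, against 2433 CPM in control cold (-0.76 ± 0.18, adjusted p = 0.0214, but 0.05 to 0.0624 when control cold 2 or any KO cold library was left out). Gpam, which starts its esterification, fell (-1.08 ± 0.11, adjusted p = 3.43e-05), and Gpat3, of the same step in the endoplasmic reticulum, rose (1.1 ± 0.31, adjusted p = 0.0430, but 0.0538 to 0.121 without any 1 of 8 libraries). Cold against RT gave 4 higher and 0 lower in control (25.2% of all genes passed) and 3 and 0 in KO (18.9%). In KO Gk rose (2.20 ± 0.21, adjusted p = 6.3e-06), while Gpam (adjusted p = 0.0501), Gpat4 (0.165) and Aldoa (0.119) did not pass. In control Gk (2.06 ± 0.25, adjusted p = 3.82e-05) and Gpam (1.104 ± 0.15, adjusted p = 7.35e-05) rose. The Gk change was 2.74 without control RT 2 (805 CPM) and 1.59 without control RT 1 (368 CPM). Gpat4 (0.66 ± 0.19, adjusted p = 0.0179, but 0.308 without control RT 1) and the glycolytic aldolase Aldoa (0.47 ± 0.17, adjusted p = 0.0458, but 0.0507 to 0.385 without any 1 of 9 libraries) rose with less support.

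Dehydrogenases that pass electrons to ubiquinone, as Gpd2 does, had 2 higher and 0 lower of 9 in KO cold relative to control cold. Of all genes, 2.44% were higher and 3.49% lower there. Prodh, proline dehydrogenase, rose (1.502 ± 0.33, adjusted p = 0.0122), as did Chdh, choline dehydrogenase (0.79 ± 0.19, adjusted p = 0.0207, but 0.0519 to 0.0677 when control cold 3, KO cold 3 or KO cold 4 was left out). In cold against RT 2 rose and 2 fell in control (25.2% of all genes passed), and 2 rose and 1 fell in KO (18.9%). In KO Chdh fell (-0.89 ± 0.18, adjusted p = 0.00262), and Etfdh (0.49 ± 0.11, adjusted p = 0.0039) and Prodh (1.52 ± 0.35, adjusted p = 0.00622) rose. Dhodh did not pass there (-0.55 ± 0.21, adjusted p = 0.0819). Sdhb, a subunit of succinate dehydrogenase, rose in control (0.93 ± 0.15, adjusted p = 0.000478), with 515 CPM on average in control RT and 945 to 1012 CPM in the other 3 groups. Its cold change in KO was 0.10 ± 0.13 (adjusted p = 0.637). The difference of cold responses of Sdhb did not pass (-0.83 ± 0.20, adjusted p = 0.252). Nor did KO against control at RT (0.88 ± 0.16, adjusted p = 0.349), where the 2 control libraries were at 426 and 603 CPM. Chdh fell in control (-1.47 ± 0.21, adjusted p = 0.000161). Etfdh, which takes electrons from fatty acid oxidation, rose (0.45 ± 0.12, adjusted p = 0.0127, but 0.0720 or 0.0753 without control RT 1 or 2), and Dhodh, of pyrimidine synthesis, fell (-0.82 ± 0.25, adjusted p = 0.0241, but 0.0504 to 0.129 without control cold 3 or either control RT library).

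Likeness of pattern was measured as Pearson's r of log2 CPM over the 13 libraries, among 9524 genes, and it contains the differences between groups. Nearest to Got1 were Igfbp3 (r = 0.987) and Cebpz (r = 0.983). Igfbp3, which binds insulin-like growth factors, rose in cold by 1.62 ± 0.19 in KO and 1.55 ± 0.21 in control. Cebpz rose by 0.99 ± 0.14 in KO and 1.23 ± 0.16 in control. Coq10a was nearest to Slc25a11 (r = 0.961), Letm1 to Mdh1 (r = 0.941), Mpnd to Gpt (r = 0.931), Psma2 to Gpd2 (r = 0.924) and Fth1 to Gpd1 (r = 0.893). Tcp11l2 was nearest to Gpt2 (r = 0.853) and Ccdc3 to Got2 (r = 0.853), both of which had few counts.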

How the data were processed

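Libraries were made with a QuantSeq 3′ kit, per the labels' protocols. The table the authors deposited holds unscaled counts for each Ensembl gene. Tools listed in the submitters' processing notes, with no role stated, are STAR 2.7.10b, HTSeq 0.12.3, UMI-tools 1.1.2, Trim Galore 0.6.7, limma and edgeR, and the build listed is GRCm39. Use of molecular identifiers or of strand in counting is not given in the sources used here. Of 55632 lines, 275 repeated an identifier with equal counts and were dropped. Promoter windows and their coordinates are RefSeq's on GRCm38.p6 and were not converted.

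Counts were fitted in R 4.3.3 with edgeR 4.0.16 (filterByExpr with minimum count 10, TMM scaling, 1 coefficient per group over all 13 libraries, two-sided tests of 5 contrasts). Intervals use the moderated degrees of freedom. Alternatives were DESeq2 1.42.0, limma 3.58.1 voom, relative log expression scaling, no filter, only the groups compared, a replicate block, each library left out, and RT libraries with muscle markers above 1000 CPM left out (added after seeing the data). Fits were tested on simulated data. No 2 replicates were as alike as sampling noise allows (chi-square per degree of freedom at least 1.92).

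The members and lists were chosen with earlier results of these data known. All 10 members were named. From each further list, up to 4 genes past the threshold with the smallest p between KO and control in cold, and between cold and RT in control, were named. For likeness, the nearest genes with a mean of at least 5 CPM were taken. The likeness of Slc25a12 is not reported here. Motifs were chosen with the results known.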

Additional observations from a re-analysis of the deposited data

Results flagged for a closer look

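In 20 groups of 4 libraries (10 genes in KO cold and in control cold), 2 held a library whose gap to the next exceeded Dixon's critical share of the range, where chance gives about 1 in 20. Got2 in control cold 4 was at 22.6 CPM, above the other 3 (gap 0.854 of the range). Slc25a13 in KO cold 3 was at 1.125 CPM, which is 2 counts where the other 3 libraries had 0, so any count at all would have set it apart and only the Got2 value can be read against chance.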

How the results depend on the processing

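The 3 calls of Got1 kept their direction under every alternative. Both cold rises also stayed under 0.05 in all of them. Without the RT libraries rich in muscle RNA, 1 library was left in each RT group, and the lone library is assumed to vary like the other groups, as when 1 control RT library was left out. In that setting Got1 in KO cold against control cold was -0.60 (adjusted p = 0.0216). Scaling by relative log expression moved the median of all genes by less than 0.1. Counts were few for Slc25a13, with at most 4 in a library, and for Slc25a12, with 3 to 22. Replicate numbers did not pair the samples: deviations of same-numbered libraries correlated at 0.138, -0.0824, 0.0529 and -0.163 in cold and at 0.333 and -0.013 at RT. With a replicate block, 564 genes passed in KO against control in cold, 0 at RT, 1629 in cold against RT in KO, 2122 in control and 0 in the difference, and Got1 kept its calls.

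Counts of genes passed moved as follows. With no filter on low counts, 2 shuttle genes passed in KO against control in cold (Gpd1 added) and 2 in cold against RT in control (Mdh1 added), and over all genes 50 passed at RT and 133 in the difference. DESeq2 passed 3 at RT and 29 in the difference, and limma-voom 1 in the difference. Only the groups compared gave 1685 for cold in control. Without the RT libraries rich in muscle RNA, 452 passed for cold in KO, 870 in control and 0 in the difference. Leaving out 1 library gave 392 to 716 genes in KO against control in cold, 0 to 3 at RT, 1219 to 2271 for cold in KO, 1067 to 2821 in control and 0 to 4 in the difference. It gave 0 to 1, 0 to 0, 1 to 2, 1 to 3 and 0 to 0 shuttle genes in the same order.

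Direction turned in values that had not passed. In KO against control in cold, limma-voom gave Gpt2 0.012. With the replicate block, Slc25a12 was at 0.17 in KO against control at RT, Gpt2 at -0.035 for cold in KO, and in the difference Slc25a12 at -0.25 and Got1 at -0.061. Limma-voom gave Slc25a12 -0.045 in the difference. Without the RT libraries rich in muscle RNA, KO against control at RT was 0.28 for Gpd1, 0.040 for Gpd2 and -0.29 for Gpt, cold in KO was -0.16 for Gpd1, and the difference was -0.088 for Slc25a11 and -0.19 for Gpd2. Leaving out 1 library spanned, in KO against control in cold, -0.12 to 0.40 for Got2, -0.10 to 0.092 for Mdh1, -0.28 to 0.21 for Slc25a12 and -0.30 to 0.14 for Gpt2. At RT it spanned -0.024 to 0.23 for Mdh1, -0.040 to 0.20 for Slc25a11, -0.50 to 0.55 for Slc25a12, -0.44 to 0.094 for Gpd1 and -0.077 to 0.24 for Gpt. For cold it spanned -0.080 to 0.12 for Gpd1 and -0.016 to 0.34 for Gpt2 in KO and -0.039 to 0.50 for Gpd1 in control. In the difference it spanned -0.30 to 0.36 for Got1, -0.24 to 0.013 for Mdh1, -0.59 to 0.45 for Slc25a12, -0.47 to 0.072 for Gpd1, -0.043 to 0.15 for Gpd2 and -0.038 to 0.33 for Gpt. The cause was not tested.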
